A study of Homo sapiens with 6 samples.

Results

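The genes of cholesterol synthesis, uptake and efflux were compared between HMV-II cells that carried a control vector and HMV-II cells in which EZH2 was knocked down. The group holds 33 genes, chosen by symbol and placed in 5 steps: 8 of the mevalonate pathway, 12 of the sterol steps that follow it, 5 of uptake and intracellular transport, 4 that control the sterol regulatory element binding proteins (SREBPs), and 4 of efflux under the liver X receptors (LXRs). All 33 were among the 30015 genes of the deposited table, and 31 belonged to the 15251 genes tested, whose normalized counts averaged 10 or more over the libraries. STARD4 and ABCG1 fell short of that minimum.

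HMV-II is a human mucosal melanoma line of vaginal origin, and EZH2 is the catalytic subunit of a Polycomb repressive complex, which methylates histones and keeps genes silent. The RNA-seq holds 3 libraries of each group. The Vector group has the wild-type genotype in the labels and is the control, for which the methods describe a scrambled shRNA, and the shEZH2 group carries a lentiviral shRNA against EZH2. Both groups are puromycin-selected stable cells that received no other treatment and grew in the same medium with fetal bovine serum. The labels do not say that the 3 libraries of a group came from separate cultures, so the p-values measure the spread between these libraries, which may be technical. The table heads the knockdown group sh1, so that its 3 libraries come from a single shRNA.

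Cholesterol is built from acetyl-CoA in the mevalonate pathway, which also supplies the isoprenoids used to anchor proteins in membranes, and in a longer series of sterol steps that starts at squalene. SREBPs are transcription factors held in the endoplasmic reticulum by INSIG proteins and their escort SCAP while sterols are plentiful. When sterols run low they are carried to the Golgi, cleaved and released to the nucleus, where they switch on genes of synthesis and uptake. LXRs respond to oxysterols and switch on genes that export cholesterol.

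For EZH2 itself, the Vector libraries held 483, 437 and 552 normalized counts and the shEZH2 libraries 237, 247 and 225, given here and for every gene in the order of replicates 1, 2 and 3. The groups did not overlap, and the level with shEZH2 was 0.485 of that with Vector (log2 fold change -1.04, SE 0.14, adjusted p = 0.0142, limma). A normalized count is the number of reads on a gene divided by a size factor of its library, and depth ran from 13400290 to 19128939 reads per library. All 8 melanocyte markers were expressed, with summed levels of 1237 to 1619 reads per kilobase of gene length scaled to library depth (RPKM) in Vector and 1337 to 1458 in shEZH2. Of 6 markers each, 0 immune, 2 fibroblast and 3 epithelial markers averaged 10 or more normalized counts. The immune markers summed to at most 0.747 RPKM, the fibroblast markers to 2.88 to 3.81 RPKM in Vector and 4.79 to 6.24 in shEZH2, and the epithelial markers to 20.2 to 26.8 and 26.8 to 28.7 RPKM, most of it KRT18. The fibroblast markers tested went opposite ways, LUM being called higher (0.74) and COL1A2 lower (-0.83). Among the melanocyte markers, whose sum is mostly PMEL, TYRP1 (1.68, adjusted p = 0.00317) and MLANA (0.88, adjusted p = 0.214, and 0.39, not called, without Vector replicate 2) were called higher and TYR lower (-0.97, adjusted p = 0.0532). The part of these markers in the results was not tested, and in bulk RNA a change in the share of cells of a type cannot be told apart from a change in RNA per cell. Vector replicate 2 stood apart from Vector replicates 1 and 3, with lower values for short genes (median log2 deviation -0.54 in the genes of up to 2323 bases) and higher values for long genes (0.42 in those of 7931 bases or more). Among the 31 genes tested here, Vector replicate 2 lay below the mean of the other two Vector libraries for 22 and above it for 9, and was over 0.5 away on the log2 scale for 11. The value without that library is given beside a result where it changed a call at the threshold, and beside some others that it moved. Values for which it is not given may also have moved.

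Most genes of cholesterol synthesis rose with shEZH2, whereas a single gene of uptake, SREBP control or LXR efflux, INSIG1, passed the threshold. A gene was called when its unadjusted p in limma was under 0.05 and its fold change on the log2(normalized count + 1) scale was past 1.5-fold in either direction. By that rule 18 of the 31 genes tested were called higher and 0 were called lower, where 7.55% of all genes tested were called higher and 7.07% lower. With an adjusted p under 0.05 in place of that rule, 12 were higher and 0 lower, against 2.28% and 1.84% of all genes tested. The lowest shEZH2 library was above the highest Vector library for 21 of the 31 genes, and the highest shEZH2 library was below the lowest Vector library for 2, against 18.4% and 16.5% of all genes tested. The median log2 fold change was 0.85 over the 31 genes and 0.039 over all genes tested. Without Vector replicate 2, 15 of the 31 were called higher and the median was 0.58. The count with an adjusted p under 0.05 moved with the library left out, as did that over all genes tested. Without Vector replicate 2 it was 20 of these genes, and 1491 of all genes against 348 with all libraries. Without Vector replicates 1 and 3 it was 8 and 6 of these genes (125 and 95 of all genes), and without shEZH2 replicates 1, 2 and 3 it was 3, 3 and 0 (13, 19 and 3 of all genes).

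**Figure D1:**
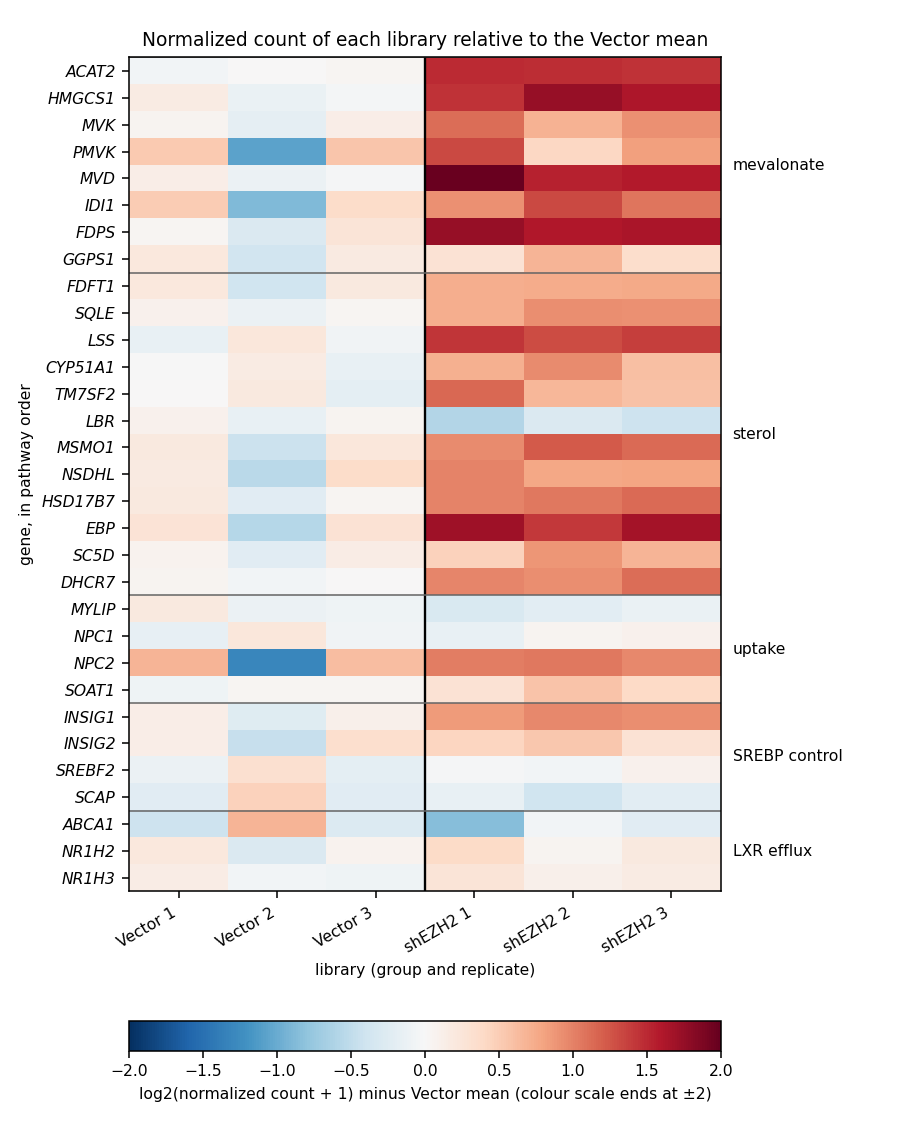
Log2(normalized count + 1) of each of the 31 genes tested (in pathway order from top to bottom) in each of the 6 libraries, as the difference from the mean of the 3 Vector libraries, with horizontal lines between the 5 steps. The shEZH2 columns are red for nearly all genes of the mevalonate and sterol steps and pale for most of those below, and the Vector replicate 2 column stands out for PMVK, IDI1, NPC2 and ABCA1.

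Nearly all of the calls were in the synthesis steps. Of the 20 genes of synthesis, 17 were called higher, with a median log2 fold change of 0.96 (14 called and a median of 0.86 without Vector replicate 2). Of the 11 genes tested outside synthesis, only INSIG1 was called. Summed over its genes, the level of the mevalonate step was 86.7 ± 17.5 RPKM (SD, n = 3) in Vector and 227 ± 11.6 RPKM (SD, n = 3) in shEZH2, a ratio of 2.62. The sterol step went from 183 ± 24.8 to 360 ± 8.47 RPKM, a ratio of 1.97. The other 3 steps had ratios of 1.35 (uptake), 1.18 (SREBP control) and 1.17 (LXR efflux). In the mevalonate, sterol and uptake sums every shEZH2 library was above every Vector library, the uptake sum running from 45.4 to 60.7 RPKM in Vector and from 71.8 to 78.7 in shEZH2, whereas in the SREBP control sum Vector replicate 2, at 179 RPKM, was as high as the shEZH2 libraries, which held 174 to 179 RPKM.

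**Figure D2:**
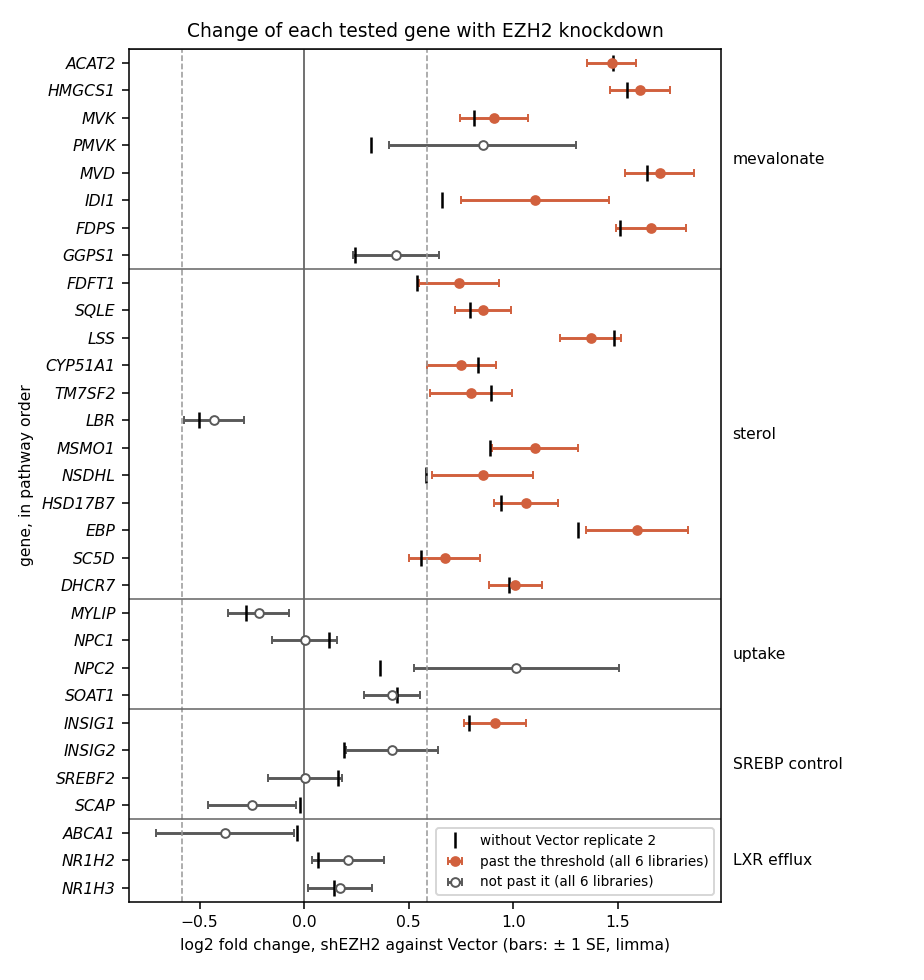
Log2 fold change of each tested gene, shEZH2 against Vector (circles, with bars of 1 SE from limma), and the same value without Vector replicate 2 (black ticks), with dashed lines at 1.5-fold in either direction. Filled circles, all to the right, are the 18 genes past the threshold. The ticks of PMVK, IDI1 and NPC2 lie far to the left of their circles.

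The mevalonate step opens with ACAT2, the cytosolic thiolase that joins acetyl-CoA units. It had 578, 608 and 619 normalized counts in Vector and 1686, 1675 and 1646 in shEZH2. These were among the tightest groups of the pathway, and ACAT2 rose 2.77-fold (log2 fold change 1.47, SE 0.12, adjusted p = 0.00317). HMGCS1, the synthase that makes HMG-CoA, had 952, 777 and 823 in Vector and 2319.5, 2824 and 2614 in shEZH2. It rose 3.04-fold (1.60, SE 0.14, adjusted p = 0.00448) with no overlap between the groups. MVK, mevalonate kinase, had 454, 383 and 478 in Vector and 945, 705 and 822 in shEZH2 and rose 1.87-fold (0.91, SE 0.16, adjusted p = 0.0286). PMVK, the kinase of the next step, had 375, 125 and 385 normalized counts in Vector and 653, 351 and 465 in shEZH2. It was not called (0.85, SE 0.45, adjusted p = 0.296), with overlapping groups and a value in Vector replicate 2 that deviated by -1.60 from the mean of Vector replicates 1 and 3 on the log2 scale. Without Vector replicate 2 its log2 fold change was 0.32, and without Vector replicate 1 or 3 it was called, at 1.11 and 1.13.

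MVD, the decarboxylase that yields isopentenyl pyrophosphate, had the highest log2 fold change of the 31 genes. It had 609, 509 and 544 normalized counts in Vector and 2179, 1607 and 1653 in shEZH2, and rose 3.25-fold (1.70, SE 0.16, adjusted p = 0.00607). It ranked 100 from the highest among the 15251 genes tested, with FDPS at 108, HMGCS1 at 125, EBP at 128, ACAT2 at 165 and LSS at 213. IDI1, which isomerizes that product, had 1136, 431 and 1028 in Vector and 1499.7, 1984 and 1678 in shEZH2. It was called (1.10, SE 0.35), but its adjusted p was 0.125, and the low value is that of Vector replicate 2. Its log2 fold change was 0.66 without that library (adjusted p = 0.00267), still called, and IDI1 was no longer called without shEZH2 replicate 2 (1.00). FDPS, farnesyl pyrophosphate synthase, whose product is the branch point between sterols and isoprenoids, had 1413, 1124 and 1639 in Vector and 4595, 4175 and 4258 in shEZH2. It rose 3.15-fold (1.66, SE 0.17, adjusted p = 0.00607, and 1.51 without Vector replicate 2). GGPS1 makes the geranylgeranyl pyrophosphate used for protein prenylation, on the branch that leaves sterol synthesis. With 383, 251 and 372 in Vector and 401, 527 and 423 in shEZH2, it was not called (0.44, SE 0.21, adjusted p = 0.25), and had 0.24 without Vector replicate 2. In all, 6 of the 8 genes of this step were called higher, 5 of them also with an adjusted p under 0.05, and the step's median log2 fold change was 1.29 (1.15 without Vector replicate 2, with 6 called).

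The sterol step starts with FDFT1, squalene synthase, which commits farnesyl pyrophosphate to sterols. It had 4148, 2716 and 4102 normalized counts in Vector and 5939, 5980.3 and 6077 in shEZH2. It was called (0.74, SE 0.19, adjusted p = 0.0768). Without Vector replicate 2, its lowest library, it was not called, because the change was short of 1.5-fold (0.54, adjusted p = 0.00108). SQLE, squalene epoxidase, had 1337, 1153 and 1287 in Vector and 2075, 2391 and 2364 in shEZH2 and rose 1.81-fold (0.85, SE 0.13, adjusted p = 0.0203). LSS, which closes the rings to form lanosterol, had 464, 601 and 489.7 in Vector and 1388, 1272 and 1339 in shEZH2. It rose 2.58-fold (1.37, SE 0.14, adjusted p = 0.00717) and was highest in replicate 2 among the Vector libraries, so that its log2 fold change was 1.48 without that library. CYP51A1, the lanosterol demethylase, had the lowest mean per length of the synthesis genes, at 2.60 ± 0.34 RPKM in Vector and 4.57 ± 0.65 RPKM in shEZH2 (SD, n = 3). Its normalized counts were 147, 166 and 134 in Vector and 244, 289 and 225 in shEZH2, and it was called (0.75, SE 0.17) with an adjusted p of 0.0525.

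The reduction that follows can be carried out by TM7SF2 or by LBR, the lamin B receptor of the inner nuclear membrane, of which TM7SF2 alone was called. TM7SF2 had 209, 239 and 182 normalized counts in Vector and 463, 331 and 314 in shEZH2, and was called higher (0.80, SE 0.20, adjusted p = 0.069). LBR had 912, 774 and 887 in Vector and 570.4, 697 and 642 in shEZH2. All 3 shEZH2 libraries were below all 3 Vector libraries, but the difference did not reach the size asked for (-0.43, SE 0.14, adjusted p = 0.132). Without Vector replicate 2 it was -0.50, still short of that size, with an adjusted p of 0.01. The log2 ratio of LBR to TM7SF2 was 2.03 ± 0.30 in Vector and 0.80 ± 0.43 in shEZH2 (SD, n = 3). This ratio gave p = 0.1 in a two-sided exact permutation test (20 arrangements of the libraries), the smallest p that 3 against 3 libraries allow (adjusted p = 0.167 over the 5 ratios compared).

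MSMO1, NSDHL and HSD17B7 act in turn to remove methyl groups from the sterol. MSMO1 had 2182, 1420.4 and 2243 normalized counts in Vector and 3682, 4476 and 4188 in shEZH2, and rose 2.15-fold (1.10, SE 0.20, adjusted p = 0.031, and 0.89 without Vector replicate 2). Per length it was the most abundant gene of synthesis with shEZH2, at 92.1 ± 9.21 RPKM against 41.8 ± 8.97 RPKM in Vector (SD, n = 3), ahead of FDPS (75.6 ± 4.25 RPKM) and FDFT1 (74.6 ± 0.56 RPKM). NSDHL had 313, 189 and 354 normalized counts in Vector and 550.4, 470.3 and 478 in shEZH2. It was called (0.85, SE 0.24, adjusted p = 0.0937), but at 0.58 without Vector replicate 2 (adjusted p = 0.00712) it was just under the size asked for. HSD17B7 had 331, 247 and 299 in Vector and 579.9, 604 and 637 in shEZH2. It rose 2.08-fold (1.06, SE 0.15, adjusted p = 0.0165, and 0.94 without Vector replicate 2).

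The closing reactions are an isomerization, a desaturation and a reduction. EBP, the sterol isomerase, had 530.2, 298 and 542 normalized counts in Vector and 1424, 1175 and 1402 in shEZH2, and rose 3.01-fold (1.59, SE 0.24, adjusted p = 0.0196). Vector replicate 2 was again its lowest library, and leaving it out gave 1.31. SC5D, the desaturase, had 613, 501 and 651 in Vector and 801, 1077 and 938 in shEZH2. It was called (0.67, SE 0.17, adjusted p = 0.0732). It was short of the size asked for without Vector replicate 2 (0.56, adjusted p = 0.00965) or without shEZH2 replicate 2 (0.57, adjusted p = 0.21), and so not called. DHCR7, the reductase that yields cholesterol, had 1869, 1729 and 1818 in Vector and 3543, 3436 and 3929.7 in shEZH2. It rose 2.01-fold (1.01, SE 0.13, adjusted p = 0.0111), with little spread within either group. In all, 11 of the 12 sterol genes were called higher, 6 of them with an adjusted p under 0.05, and the median log2 fold change was 0.85. Without Vector replicate 2, 8 were called and the median was 0.86.

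**Figure D3:**
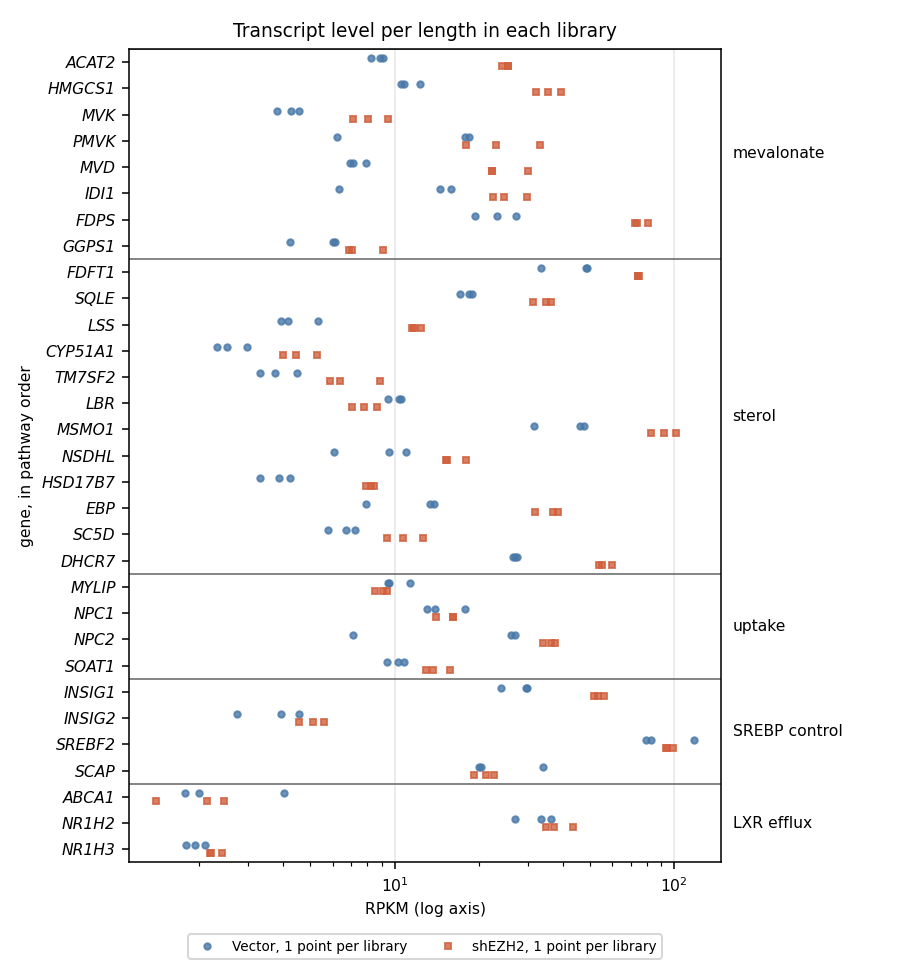
Level per length (RPKM, log axis) of each of the 31 genes tested in each library, with Vector as blue circles and shEZH2 as orange squares. The colours are separated for most genes of the mevalonate and sterol steps and interleaved for NPC1, SREBF2, SCAP and ABCA1, and the lone Vector circle far to the left for PMVK, IDI1 and NPC2 is replicate 2.

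Promoter sequence is shown for the 4 synthesis genes MVD, FDPS, EBP and MSMO1, which had some of the highest fold changes or levels, for INSIG1, called among the control genes, and for SREBF2, which encodes the SREBP of this pathway and was not called. Each stretch is the 180 bases before the RefSeq start of the gene in GRCh38.p14, written in the direction of transcription. The positions are chr16:88663092-88663271 on the minus strand for MVD, and on the plus strand chr1:155308686-155308865 for FDPS, chrX:48521628-48521807 for EBP, chr4:165327489-165327668 for MSMO1, chr7:155297698-155297877 for INSIG1 and chr22:41832925-41833104 for SREBF2. Capitals mark matches, on either strand, to CCAAT (the letters bound by NF-Y, a factor known to act beside SREBPs at sterol genes, which reads ATTGG on the other strand), to TCACNCCAC (a sterol regulatory element, where N is any base) and to CACGTG (an E-box). None of these matches overlapped another in the stretches shown.
MVD: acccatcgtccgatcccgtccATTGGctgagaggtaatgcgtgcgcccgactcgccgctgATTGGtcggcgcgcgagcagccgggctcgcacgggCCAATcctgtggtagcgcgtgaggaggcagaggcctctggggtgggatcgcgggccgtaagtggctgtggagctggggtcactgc
FDPS: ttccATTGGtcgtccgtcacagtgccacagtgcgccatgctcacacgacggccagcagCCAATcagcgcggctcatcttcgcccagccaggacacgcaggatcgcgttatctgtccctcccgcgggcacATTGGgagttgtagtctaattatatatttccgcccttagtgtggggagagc
EBP: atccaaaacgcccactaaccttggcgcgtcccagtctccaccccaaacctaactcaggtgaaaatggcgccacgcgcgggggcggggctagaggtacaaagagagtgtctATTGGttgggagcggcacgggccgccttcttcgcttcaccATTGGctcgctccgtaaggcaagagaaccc
MSMO1: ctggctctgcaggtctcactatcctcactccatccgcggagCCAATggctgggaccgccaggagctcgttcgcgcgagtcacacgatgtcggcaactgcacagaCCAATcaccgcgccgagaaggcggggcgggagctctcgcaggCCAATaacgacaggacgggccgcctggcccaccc
INSIG1: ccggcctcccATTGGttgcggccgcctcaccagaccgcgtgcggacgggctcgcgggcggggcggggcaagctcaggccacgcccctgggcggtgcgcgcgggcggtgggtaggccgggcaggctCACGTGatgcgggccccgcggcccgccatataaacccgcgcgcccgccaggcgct
SREBF2: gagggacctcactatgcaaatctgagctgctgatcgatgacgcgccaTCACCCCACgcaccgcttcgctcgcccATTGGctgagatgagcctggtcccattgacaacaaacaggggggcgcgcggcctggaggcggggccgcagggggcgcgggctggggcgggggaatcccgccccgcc

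In number, 3 CCAAT matches lie in the MVD, FDPS and MSMO1 stretches, 2 in that of EBP and 1 each in those of INSIG1 and SREBF2. INSIG1 also has an E-box, and SREBF2 has the TCACNCCAC match. The motifs were searched in the RefSeq promoter table, from 250 bases before to 50 bases after each annotated start, which held 29 of the 33 genes. ACAT2, SQLE, FDFT1 and ABCG1 had no entry. CCAAT is short and common, present in 34.6% of the 35116 windows and in at least 1 window of 39.7% of all genes in the table and of 43.0% of the genes tested. It was present for 14 of the 17 synthesis genes with an entry (82.4%) and for 7 of the 12 others (58.3%). Among the genes called higher with an entry it was present for 14 of 15, all but CYP51A1 (93.3%), against 47.6% of all genes called higher, and among the members not called higher for 7 of 14 (50%). TCACNCCAC was present for SREBF2 alone of the 29, and in 1.39% of all genes and 1.44% of the genes tested. No other form of the sterol regulatory element was searched. The lack of a match to these letters therefore does not show that a promoter lacks such an element. CACGTG was present for 5 of the 29 (17.2%), namely LSS, SC5D, INSIG1, SCAP and ABCA1, against 8.77% of all genes and 12.7% of the genes tested. A match of letters is a description of the sequence and not a bound site, and binding was not measured here.

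**Figure D4:**
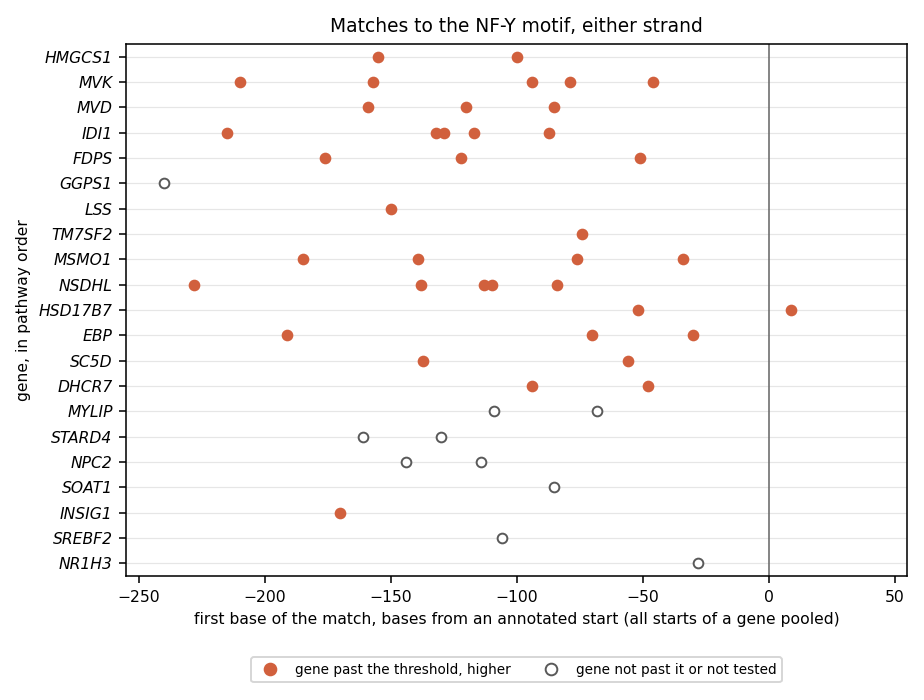
Position of each CCAAT match, on either strand, as the distance in bases of its first base from an annotated start (vertical line), for the 21 genes with at least 1 match, with all starts of a gene pooled. Filled points are genes called higher and open points are the others. Nearly all matches lie before the start, and MVK, IDI1 and NSDHL have 5 each.

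Genes of uptake and intracellular transport did not pass the threshold. MYLIP encodes a ubiquitin ligase, itself an LXR target, that sends lipoprotein receptors for degradation. It had 564, 451 and 464 normalized counts in Vector and 397, 422 and 447 in shEZH2, and although the groups did not overlap the difference was small (-0.22, SE 0.15, adjusted p = 0.393). NPC1 and NPC2 work together to move cholesterol out of the lysosome. NPC1 ran from 2158 to 2825 in Vector and from 2177 to 2567 in shEZH2, with a log2 fold change of 0.0019 (SE 0.15, adjusted p = 0.996). NPC2 had 1212, 305 and 1164 in Vector and 1532, 1572 and 1474 in shEZH2. Its log2 fold change of 1.01 came with an SE of 0.49 (adjusted p = 0.262). Vector replicate 2 held far less than any other library, and the log2 fold change was 0.36 without that library (adjusted p = 0.0221, short of the size asked for). Without Vector replicate 1 or 3 it was called, at 1.35 and 1.32. The log2 ratio of NPC1 to NPC2 was 0.83, 3.21 and 0.97 in Vector and 0.51, 0.67 and 0.80 in shEZH2 (difference -1.01, p = 0.1 in the exact permutation test, adjusted p = 0.167), and the difference was -0.24 without Vector replicate 2.

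SOAT1, which esterifies cholesterol for storage, ran from 1078 to 1178 in Vector and from 1392 to 1695 in shEZH2. The groups did not overlap, but the difference was under the size asked for (0.42, SE 0.13, adjusted p = 0.123), as it was without Vector replicate 2 (0.44, adjusted p = 0.0147). STARD4, a cytosolic sterol carrier, was barely detected, with 6 reads over the Vector libraries and 8 over the shEZH2 libraries, too few to show a difference.

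Among the genes that control the SREBPs, the INSIG pair had unlike values. INSIG1, a retention protein that is itself a well-known SREBP target, had 1779, 1365 and 1742 normalized counts in Vector and 2909, 3145 and 3082 in shEZH2. It rose 1.88-fold (0.91, SE 0.15, adjusted p = 0.0228, and 0.79 without Vector replicate 2). INSIG2, its paralogue, had 253, 168 and 291 in Vector and 310.4, 338 and 283 in shEZH2. The groups overlapped (0.42, SE 0.22, adjusted p = 0.297), and without Vector replicate 2 the value was 0.19. The log2 ratio of INSIG1 to INSIG2 was 2.80 ± 0.22 in Vector and 3.29 ± 0.13 in shEZH2 (SD, n = 3), a difference of 0.49 (p = 0.1 in the exact permutation test, the smallest possible, adjusted p = 0.167). Per length, INSIG1 was the more abundant in both groups, at 27.7 ± 3.25 and 54.0 ± 2.28 RPKM against 3.73 ± 0.93 and 5.09 ± 0.53 RPKM for INSIG2.

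SREBF2 and SCAP, the factor and its escort, overlapped between the groups and were not called. SREBF2 had 10216, 13889.7 and 9743 normalized counts in Vector and 10983, 10771 and 11781 in shEZH2, with the highest and the lowest library both in the Vector group (0.0038, SE 0.18, adjusted p = 0.993). At 93.3 ± 21.3 RPKM in Vector and 95.7 ± 3.02 RPKM in shEZH2 (SD, n = 3), it had the highest mean of the 33 genes per length in both groups, although with shEZH2 it was within the spread of MSMO1. SCAP had 2121, 3425 and 2126 in Vector and 2241, 1897 and 2156 in shEZH2. Apart from Vector replicate 2, its 5 libraries ran from 1897 to 2241, and the log2 fold change of -0.25 (SE 0.21, adjusted p = 0.489) was -0.021 without that library.

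None of the LXR efflux genes tested passed the threshold. ABCA1, the transporter that loads cholesterol onto apolipoproteins and is a standard LXR target, had 331, 713 and 368 normalized counts in Vector and 245, 426 and 380.0 in shEZH2. The groups overlapped (-0.38, SE 0.33, adjusted p = 0.507), and without Vector replicate 2, its highest library, the log2 fold change was -0.034. ABCG1, a transporter that passes cholesterol to lipoprotein particles, was at or near 0, with 1 read over the Vector libraries and 2 over the shEZH2 libraries, so no fold change or ratio with ABCA1 can be read. NR1H2, which encodes the broadly expressed LXR beta, had 2224, 1579.9 and 2029 in Vector and 2507, 1996 and 2199.7 in shEZH2 (0.21, SE 0.17, adjusted p = 0.484, and 0.066 without Vector replicate 2). NR1H3, which encodes LXR alpha, had 156, 136 and 132 in Vector and 169, 151 and 158 in shEZH2 (0.17, SE 0.15, adjusted p = 0.516). Both overlapped between the groups, and the log2 ratio of NR1H2 to NR1H3 was 3.76 ± 0.21 in Vector and 3.80 ± 0.085 in shEZH2 (SD, n = 3, p = 0.9 in the exact permutation test). Per length NR1H2 was the more abundant receptor, at 32.2 ± 4.71 RPKM against 1.94 ± 0.15 RPKM in Vector.

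Genes around the pathway were taken from 4 further lists. Of their 42 genes tested, 5 were called higher (11.9%, where 7.55% of all genes tested were) and 0 lower, with a median log2 fold change of 0.26. Of 11 genes of SREBP cleavage and sterol-sensing degradation, 2 were called, and both had an adjusted p under 0.05. TMEM97, a sterol-regulated membrane protein, had 342, 420.3 and 394 normalized counts in Vector and 819.8, 791 and 868 in shEZH2 (1.10, SE 0.14, adjusted p = 0.0109). ERG28 is a scaffold for the enzymes of sterol demethylation. It had 524, 233 and 513 in Vector and 1146, 1166 and 1212 in shEZH2 (1.56, SE 0.30, adjusted p = 0.0355, and 1.18 without Vector replicate 2). For TMEM97 and ERG28, every shEZH2 library was above every Vector library. Of 11 other lipoprotein receptor and sterol transport genes VLDLR alone was called (0.59, adjusted p = 0.0881), of 12 genes of isoprenoid use RABGGTA, a subunit of the enzyme that prenylates Rab proteins (0.62, adjusted p = 0.0802), and of 8 oxysterol and LXR genes HSD3B7, an enzyme of bile acid synthesis (0.97, adjusted p = 0.0761). VLDLR (0.52, adjusted p = 0.0227) and RABGGTA (0.47, adjusted p = 0.0113) were short of 1.5-fold without Vector replicate 2 and no longer called, which left 3.

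Fatty acid synthesis, the other pathway under SREBP control, was set beside these genes. Of its 10 genes, 5 were called higher, with a median log2 fold change of 0.54, against 17 of 20 and 0.96 for cholesterol synthesis. The difference between the lists was not tested. ACSS2, which makes acetyl-CoA from acetate, had 902, 1000.1 and 886 normalized counts in Vector and 2654, 2671 and 2675 in shEZH2 (1.52, SE 0.12, adjusted p = 0.00317). The other 4 were ELOVL6 (0.98, adjusted p = 0.0173), ACLY (0.77, adjusted p = 0.0429), FASN (0.71, adjusted p = 0.159) and SCD (0.61, adjusted p = 0.148), of which FASN and SCD were called or not depending on the library left out. Without Vector replicate 1, for example, they had log2 fold changes of 0.59 and 0.52 and were not called, and without Vector replicate 2 they had 0.99 and 0.81 and were.

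Some of these counts may include reads of overlapping genes, and the strandedness of the counting is not given in the sources used here. On the other strand, ACAT2 overlaps TCP1, MVK overlaps MMAB, FDPS overlaps RUSC1-AS1 and GGPS1 overlaps ARID4B. So do NPC1 and RMC1, NPC2 and ISCA2, and NR1H3 and ACP2. On the same strand, where strandedness cannot separate reads, GGPS1 overlaps TBCE, and TM7SF2 shares 16 bases with VPS51 (log2 fold change of VPS51 0.038). Apart from VPS51, the overlaps run from 458 to 25624 bases. They are of whole spans from gene start to gene end, introns included, and the part within exons was not measured. The log2 fold changes of these neighbours were 0.085 for TCP1, 0.59 for MMAB (adjusted p = 0.133), -0.94 for ARID4B (adjusted p = 0.0380), 0.70 for ISCA2 (adjusted p = 0.460) and 0.47 for RUSC1-AS1, whose mean of 301 normalized counts compares with 2867 for FDPS. HSD17B7 has a near copy, HSD17B7P2, with a mean of 40.6 normalized counts against 449.7 for HSD17B7.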

How the data were processed

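Poly-A RNA of 3 Vector and 3 shEZH2 libraries was sequenced on an Illumina instrument. Gene counts were made by the authors in featureCounts (v1.5.0-p3), and the deposited signal values are those reads divided by a size factor per library, made with DESeq2 1.20.0. The aligner and the strandedness are not given in the sources used here. The submitters' processing notes name hg19, but the coordinates deposited for the genes are those of GRCh38 (48.0% of 20796 genes share an end with it, and 0.838% of 29478 with GRCh37). The authors' group means, log2 fold changes and p-values, also in the table, were not used.

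Dividing by the value of 1 read gave whole numbers for 100% of the values of every library, within 0.01, and so recovered depths of 13400290 to 15923029 per Vector library and 16129171 to 19128939 per shEZH2 library. The groups were tested in limma 3.58.1, with lmFit and a trended eBayes on log2(normalized count + 1), over genes that averaged 10 or more, with Benjamini-Hochberg adjustment over all genes tested. Calls used the study's threshold, an unadjusted p under 0.05 and a change past 1.5-fold (rounded) in either direction. On the recovered reads, edgeR 4.0.16 called 1086 genes higher and 1191 lower, and DESeq2 1.42.0 1045 and 1321, against 1151 and 1078 with limma. RPKM used the deposited gene lengths and the recovered reads. Ratios within 5 pairs of genes were compared by exact permutation of the 6 libraries. No covariate or replicate block was used.

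All 33 genes were named, with the value in each library for called genes, the 3 highest and 3 lowest fold changes and the regulators. In the lists around the pathway only called genes were named. Genes that overlap a member, and single members or markers that stood out, were named after their values were seen. The members and lists were chosen with earlier results of these data known. The alternatives were DESeq2, edgeR, a pseudocount of 0.1 or 5, no minimum or one of 50 on the mean, TMM scaling, a log2 fold change above 1, a replicate block, removal of the gene length trend by loess, and each library left out. Scripts were tested on simulated data and used R 4.3.3, Python 3.11.15, pandas 2.3.3, scipy 1.17.1 and matplotlib 3.10.9. Results of some genes of the pathway are not reported here. Promoters came from a RefSeq table of GRCh38.p14.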

Additional observations from a re-analysis of the deposited data

How the results depend on the processing

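Across 15 alternative fits, the 18 called genes gave 265 of 270 refits past the threshold, 5 short of it and 0 reversed, and 14 genes were called in every fit. With a log2 fold change above 1 required, 10 members were called higher, with 5 sterol genes, 0 SREBP control genes, 2 genes of the lists around the pathway and 1 fatty acid gene. Leaving out each library in turn gave 0 to 20 members higher and 0 to 1 lower with an adjusted p under 0.05, and 15 to 20 higher at the threshold. Such fits gave 0 to 1 uptake genes, 3 to 5 genes higher and 0 to 1 lower around the pathway, and 3 to 5 fatty acid genes. DESeq2 gave 1 member lower with an adjusted p under 0.05, LBR, and no minimum mean gave 1 uptake gene, NPC2. The log2 fold change of NPC1 was -0.030 with DESeq2, -0.0085 with edgeR and -0.077 to 0.12 with a library left out, that of SREBF2 -0.041, -0.019 and -0.093 to 0.16, and the NR1H2 to NR1H3 difference ran from -0.078 to 0.12 with a library left out. All of these lie near 0. The median over all genes tested stayed between -0.015 and 0.073 across the fits.

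The labels do not say whether libraries with the same replicate number are paired. The deviations of same-numbered libraries from their group means correlated at 0.28, 0.22 and -0.11. These values cannot decide the question, because the Vector deviations mostly reflect how far Vector replicate 2 stood from the other Vector libraries. A fit with a replicate block called 20 members higher (11 with an adjusted p under 0.05) and 1 uptake gene, adding PMVK and NPC2, and turned no other call.

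Depth limited STARD4 and ABCG1, which had too few reads to compare. With 3 libraries a group, a ratio cannot reach an exact p under 0.1. Vector replicate 2 carries a gene length trend that no label accounts for. With the trend removed from every library, the log2 fold changes were 0.66 for PMVK, 1.01 for IDI1 and 0.82 for NPC2 (0.85, 1.10 and 1.01 as reported), and IDI1 alone of these was called, as before.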
